A study of Danio rerio with 15 samples.

Results

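The genes described here encode the nuclear pore complex and the receptors that carry cargo through it, measured in kdrl-positive cells of zebrafish embryos. They were chosen by name, as rows of the count table whose gene name starts with nup, kpna, kpnb, ipo or xpo followed by a digit, or with tnpo, and which had at least 10 counts in 2 or more libraries. Of 32105 rows, 47 matched by name and 46 met the count minimum, namely 21 nucleoporins and 25 transport receptors. The row left out was ipo13a, with 36 counts in all. All 46 genes were kept by the filter on low counts and were tested.

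Nuclear pores are channels through the nuclear envelope, built from many copies of nucleoporins. Outer and inner rings form the scaffold, nucleoporins rich in phenylalanine and glycine repeats fill the central channel, and filaments and a basket extend into the cytoplasm and the nucleus. Importins and exportins bind cargo and pass through the channel, and the small GTPase Ran, loaded with GTP in the nucleus, sets the direction in which cargo is released. Importin alpha proteins (KPNA) recognise the classical nuclear localisation signal and travel with importin beta (KPNB1), while other importins, transportins and exportins bind their cargo directly.

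The embryos were taken at 28 hours post fertilization and were sf3b1 mutants, their siblings, of a genotype at sf3b1 that is not labelled, or wildtypes. Sf3b1 is the subunit of the spliceosome that helps recognise the branch point of introns. Every embryo overexpressed the transcription factor Stat3, either in a constitutively active form (CA-Stat3) or as the wildtype protein (WT-Stat3), and no library without overexpression was analysed here. Each genotype had 3 libraries with CA-Stat3 and 2 with WT-Stat3, which gave 15 libraries in 6 groups. The labels name neither the sf3b1 allele, nor the promoter that drove Stat3, nor the number of embryos in a library, nor whether replicates were separate clutches, so the spread behind the p-values is that of libraries and may be in part technical.

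Library totals were 3625121 to 6506853 counts in the 5 mutants, 5161557 to 8059498 in the 5 siblings and 6212802 to 8170371 in the 5 wildtypes. Every library held at least 22 counts of each of 14 endothelial markers, kdrl and cdh5 (VE-cadherin) among them. SF3B1 itself had 108, 92.3, 82, 93.3 and 105 CPM (counts relative to the TMM-scaled library size) in the mutants, while the siblings lay between 157 and 172 CPM and the wildtypes between 170.03 and 208 CPM, a mutant minus wildtype log2 difference of -0.97 ± 0.11 (edgeR BH-adjusted p = 1.76e-05). Replicate 2 of the WT-Stat3 mutants stood apart: it was the shallowest library, 39.5% of its counts fell in 1 row (zgc:158463), against 16.3% to 27% in the other 14 libraries, and its rank correlation with its fellow replicate (Spearman rho 0.918 over all genes tested) was the lowest of the 12 pairs of replicates. It was the highest of the 5 mutant libraries for 32 of the 46 pore and transport genes, and for 26.3% of all genes tested. Many counts of the pore and transport genes and of the pathway lists are therefore given below also without it.

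Markers of other cell types that the sort could hold differed between genotypes. Summed over 13 erythroid markers, mutants had 1497 to 3644 CPM, siblings 943 to 3111 CPM and wildtypes 710.1 to 1681 CPM, with 9 of 12 tested markers called higher in mutants than in wildtypes. Macrophage and neutrophil markers summed to 199 to 726 CPM in mutants, 1313 to 3255 CPM in siblings and 1551 to 3077 CPM in wildtypes (16 of 18 lower). Neural markers summed to 198 to 459 CPM in mutants, 579 to 980 CPM in siblings and 338 to 629.5 CPM in wildtypes (7 of 13 lower). Mesenchymal, notochord and cartilage markers summed to 669 to 963 CPM in mutants, 1067 to 3756 CPM in siblings and 1869 to 3476 CPM in wildtypes (10 of 14 lower). Epidermal markers (4 of 14 lower) summed to 1191 to 2189 CPM in mutants, 1969 to 3175 CPM in siblings and 2332 to 3446 CPM in wildtypes. Muscle markers (1 of 9 lower) summed to 55.4 to 251 CPM in mutants, 46.2 to 3039 CPM in siblings and 184 to 606 CPM in wildtypes. Of the 14 endothelial markers 1 was called higher and 2 lower in mutants than in wildtypes. They summed to 3170 to 5392 CPM in mutants, 2011 to 4691 CPM in siblings and 3649 to 5724 CPM in wildtypes. The lowest endothelial sum and the highest muscle sum were in the same library, replicate 3 of the CA-Stat3 siblings. The only marker at 0 in all libraries was 1 row of the muscle gene TNNT2. Of all genes tested 13.9% were called higher and 14.8% lower in mutants than in wildtypes. The marker calls include replicate 2 of the WT-Stat3 mutants and are not given without it. That library had the lowest mutant sum of leukocyte, neural, epidermal and muscle markers. The other mutants had at least 503, 234, 1715 and 116 CPM of these 4 lists. The part of these cells in the results below was not tested, and in sorted bulk cells a change in the number of cells of a type cannot be told apart from a change in RNA per cell.

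Transcripts of 10 nucleoporins and 6 transport receptors were higher in sf3b1 mutants than in wildtypes, and none of the 46 genes was called lower. The genes with the largest called increases were NUP88, a nucleoporin of the cytoplasmic side, at 2.23-fold, NUP35, an inner ring nucleoporin, at 2.21-fold, XPO5, the exporter of microRNA precursors, at 1.98-fold, the channel nucleoporin nup54 at 1.86-fold and the scaffold nucleoporin NUP133 at 1.79-fold. The exportin for proteins with leucine-rich export signals (XPO1 and xpo1a), importin alpha KPNA2 and the 4 transportins were not called. These values come from an edgeR quasi-likelihood fit over all 15 libraries, with the difference of mutants from wildtypes averaged across CA-Stat3 and WT-Stat3 and p-values adjusted by the Benjamini-Hochberg (BH) method over all 18020 genes tested. A gene is called when its adjusted p is under 0.05, and differences are on the log2 scale with their standard error (SE).

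Of the 46 genes, 16 were called higher and 0 lower, where 13.9% of all genes tested were called higher and 14.8% lower. The median difference of the 46 genes was 0.35, that of all genes tested -0.03, and 40 of the 46 differences were above 0 (48.5% of all genes). In 17 of the 46 genes all 5 mutant libraries lay above all 5 wildtype libraries, which held for 9.27% of all genes tested, and in 0 they all lay below, which held for 9.5%. By both DESeq2 and limma voom, which used the same libraries, 16 of the 46 were called, and they were the same 16 genes. The share of all genes that either method called is not given here. The increases were moderate, since 2 of the 46 exceeded 2-fold, whereas 7.19% of all genes tested were called higher by more than 2-fold. Without replicate 2 of the WT-Stat3 mutants 13 of the 16 genes were still called and no other, which is 28.3% of the 46, where 10.5% of all genes were called higher and 9.47% lower. The median of the 46 genes was then 0.29, 35 differences were above 0 (49% of all genes), and in 18 genes all mutants lay above all wildtypes (12% of all genes) and in 1 all lay below (10.7%). Without replicate 1 of the WT-Stat3 wildtypes 10 of the 16 were called and no other, where 20.8% of all genes were called in either direction.

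**Figure D1:**
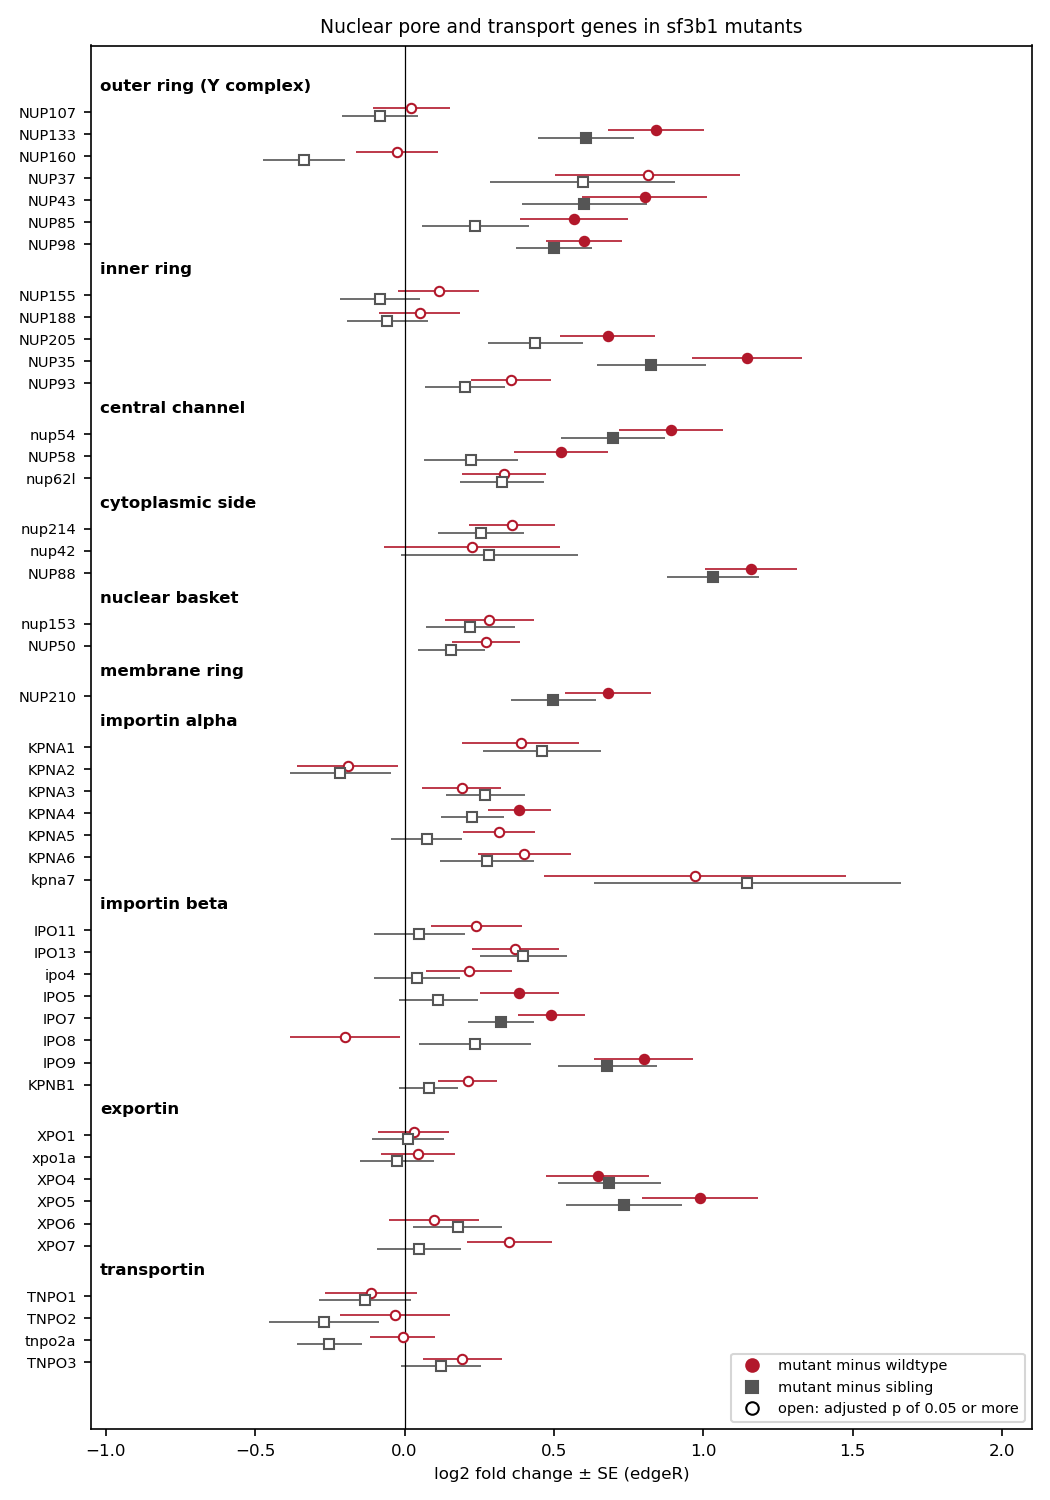
Log2 fold change (horizontal axis, with bars of 1 SE) of each of the 46 genes in mutants against wildtypes (red circles) and in mutants against siblings (grey squares), averaged over constructs and ordered by class. Filled symbols are called, and none of the filled symbols lies below 0.

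Nucleoporins had more calls than transport receptors. Of 21 nucleoporins 10 were called higher in mutants than in wildtypes, with a median difference of 0.52, and of 25 receptors 6 were called higher, with a median of 0.24. These counts were 9 and 4 without replicate 2 of the WT-Stat3 mutants, and by class 4 of 7 outer ring, 2 of 5 inner ring, 1 of 3 channel, 1 of 3 cytoplasmic, 0 of 2 basket and 1 of 1 membrane nucleoporins and 1 of 7 importin alpha, 2 of 8 importin beta, 1 of 6 exportin and 0 of 4 transportin genes were called. Without replicate 2 of the WT-Stat3 mutants the median was 0.34 over the nucleoporins and 0.21 over the receptors. The difference between both sets was not tested. Of all genes tested, 10.5% were called higher without replicate 2 of the WT-Stat3 mutants. With all libraries 13.9% were, the background of the class counts given below.

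**Figure D2:**
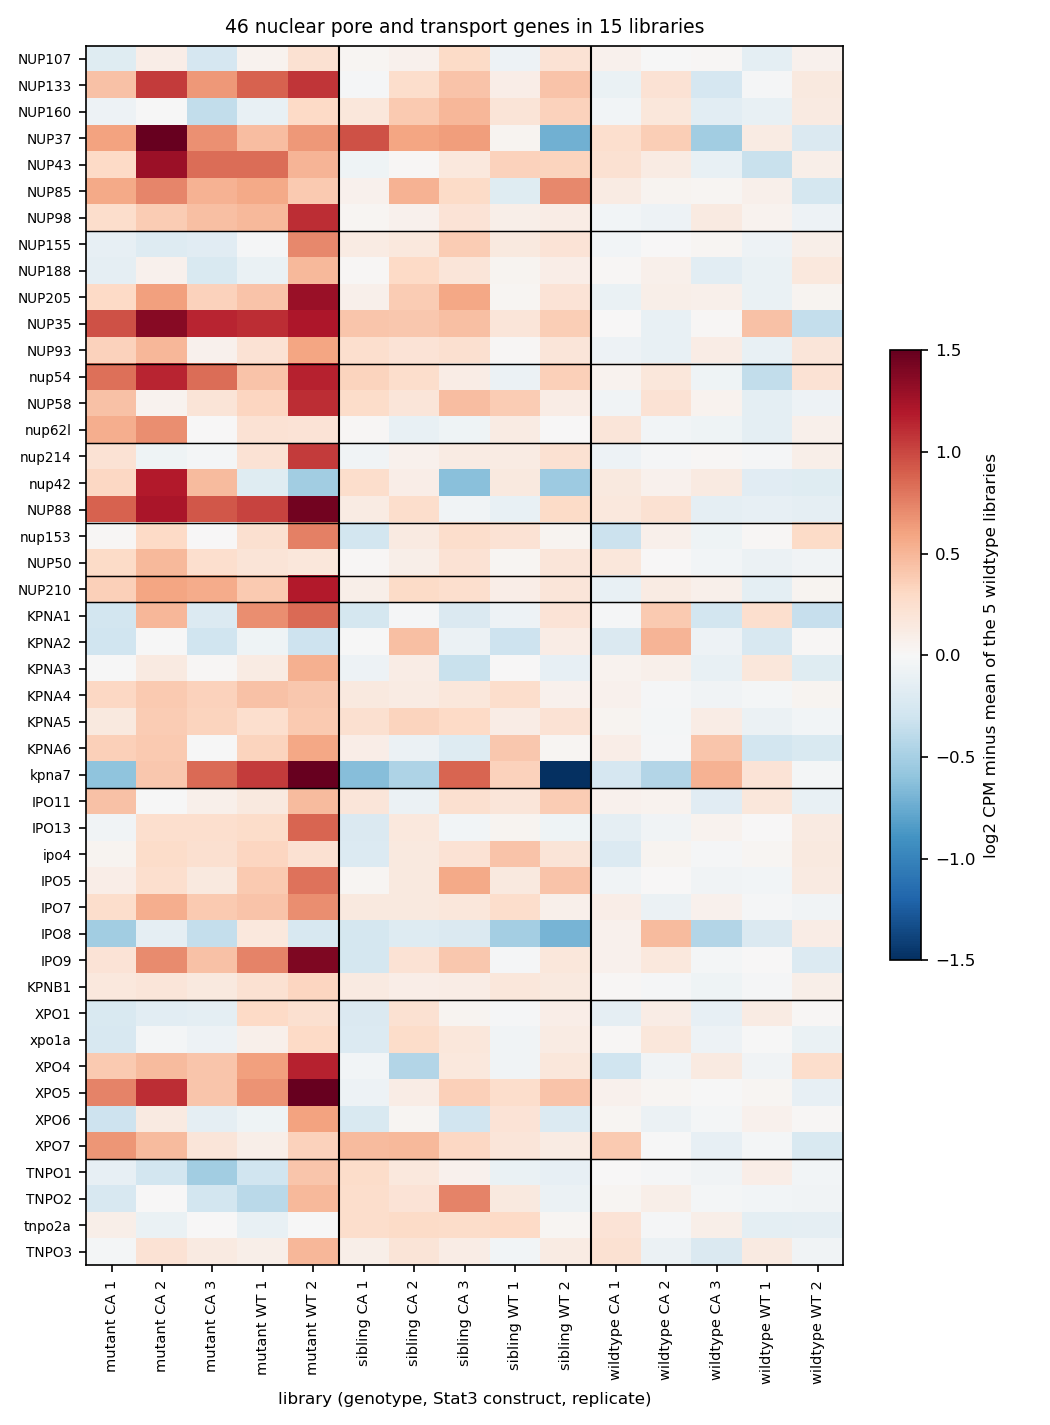
Log2 CPM of the 46 genes (rows, in the order of their classes) in the 15 libraries (columns), each minus the gene's mean over the 5 wildtype libraries. Colours end at 1.5 on either side, lines part the genotypes and the classes, and the column of mutant WT 2 is the reddest for many large increases such as NUP98 and NUP205.

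The outer ring, or Y complex, is the scaffold that faces both the cytoplasm and the nucleus. Of its 7 genes 4 were called higher in mutants. NUP133 (ENSDARG00000010078) had 37.6, 57.3 and 43.5 CPM in the CA-Stat3 mutants and 51.2 and 58.2 CPM in the WT-Stat3 mutants. Siblings had 27.3, 33.3 and 37.1 CPM of NUP133 with CA-Stat3 and 29.7 and 37.2 CPM with WT-Stat3, and wildtypes had 25.9, 32.2 and 23.2 CPM with CA-Stat3 and 27.2 and 30.5 CPM with WT-Stat3. The 5 mutant libraries lay above all 10 others. The difference of NUP133, a long stem subunit of the Y, was 0.84 ± 0.16 (edgeR BH-adjusted p = 0.00104) against wildtypes and 0.61 ± 0.16 (edgeR BH-adjusted p = 0.0107) against siblings. NUP98 encodes a precursor that is cut into the repeat nucleoporin Nup98 and the Y subunit Nup96. NUP98 (ENSDARG00000074955) had 195, 213 and 224 CPM in the CA-Stat3 mutants and 229 and 352 CPM in the WT-Stat3 mutants. Siblings had 166, 171 and 188 CPM of NUP98 with CA-Stat3 and 174 and 176 CPM with WT-Stat3, and wildtypes had 159, 155 and 179 CPM with CA-Stat3 and 169 and 155 CPM with WT-Stat3. Every mutant library was above every other library, and replicate 2 of the WT-Stat3 mutants was far above the remaining mutants. The difference was 0.60 ± 0.13 (edgeR BH-adjusted p = 0.00238) against wildtypes, and it was 0.44 and still called without that library. The Y subunits NUP43 and NUP85 rose by 0.80 ± 0.21 (edgeR BH-adjusted p = 0.00937) and 0.57 ± 0.18 (edgeR BH-adjusted p = 0.0271). NUP43 lost its call without replicate 1 of the WT-Stat3 wildtypes (0.66). NUP85 lost its call without replicate 2 of the CA-Stat3 mutants (0.54), replicate 1 of the WT-Stat3 mutants (0.48), replicate 3 of the CA-Stat3 wildtypes (0.53) or replicate 1 (0.62) or 2 (0.45) of the WT-Stat3 wildtypes.

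The other 3 genes of the outer ring were not called. NUP107, the partner of NUP133 in the stem of the Y, was the gene of this ring with the largest p. NUP107 (ENSDARG00000016010) had 41.4, 50.2 and 39.4 CPM in the CA-Stat3 mutants and 48.9 and 55.1 CPM in the WT-Stat3 mutants. Siblings had 47.8, 49.2 and 57.3 CPM of NUP107 with CA-Stat3 and 44.6 and 54.5 CPM with WT-Stat3, and wildtypes had 49.1, 46.8 and 47.6 CPM with CA-Stat3 and 42.6 and 49.2 CPM with WT-Stat3. The 3 genotypes overlapped throughout, at 0.02 ± 0.13 (edgeR BH-adjusted p = 0.912) for mutants against wildtypes. NUP160, another core subunit, was at -0.03 ± 0.14 (edgeR BH-adjusted p = 0.904). NUP37 had only 430 counts in all. It was at 0.81 ± 0.31 (edgeR BH-adjusted p = 0.0587), its 5 mutant libraries (4.53 to 10.5 CPM) lay above its 5 wildtype libraries (2.14 to 4.23 CPM), and it was called without replicate 1 of the CA-Stat3 mutants (0.88).

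The inner ring links the scaffold to the membrane and to the channel. Of its 5 genes, 2 were called higher. NUP35 (ENSDARG00000012222) had 16.9, 22.7 and 19.3 CPM in the CA-Stat3 mutants and 18.8 and 20.2 CPM in the WT-Stat3 mutants. Siblings had 11.5, 11.5 and 11.9 CPM of NUP35 with CA-Stat3 and 9.79 and 11.1 CPM with WT-Stat3, and wildtypes had 8.62, 7.88 and 8.69 CPM with CA-Stat3 and 11.8 and 6.64 CPM with WT-Stat3. The lowest mutant library, at 16.9 CPM, stood above the highest of the 10 others, at 11.9 CPM. NUP35 encodes a nucleoporin that contacts the pore membrane and binds NUP93 and NUP155, and its difference was 1.15 ± 0.18 (edgeR BH-adjusted p = 2.65e-04) against wildtypes and 0.83 ± 0.18 (edgeR BH-adjusted p = 0.00368) against siblings. The large scaffold gene NUP205 was at 0.68 ± 0.16 (edgeR BH-adjusted p = 0.00462), with 159.7 ± 52.4 CPM in mutants, 123 ± 19.9 CPM in siblings and 102 ± 6.65 CPM in wildtypes (SD, n = 5 each). Replicate 2 of the WT-Stat3 mutants had 251 CPM of NUP205 and the other 4 mutants 125 to 156 CPM, and without that library the difference was 0.44 and still called.

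NUP93, the linker that holds the channel nucleoporins, was not called. NUP93 (ENSDARG00000003487) had 57.2, 63.3 and 46.8 CPM in the CA-Stat3 mutants and 52.3 and 68 CPM in the WT-Stat3 mutants. Siblings had 53.3, 51.6 and 53.1 CPM of NUP93 with CA-Stat3 and 45.3 and 50.8 CPM with WT-Stat3, and wildtypes had 42.3, 41.5 and 48.4 CPM with CA-Stat3 and 41.6 and 51 CPM with WT-Stat3. Mutants and wildtypes overlapped, and the difference was 0.36 ± 0.13 (edgeR BH-adjusted p = 0.0554). NUP93 was called without replicate 3 of the CA-Stat3 mutants (0.41). It was also at 0.41 without replicate 1 of the WT-Stat3 mutants, which left replicate 2 as the only library of that group. NUP188, the paralogous counterpart of NUP205 in the scaffold, had the largest p of the ring. NUP188 (ENSDARG00000030022) had 67, 77.6 and 63 CPM in the CA-Stat3 mutants and 68.8 and 104 CPM in the WT-Stat3 mutants. Siblings had 74.9, 90.6 and 83.5 CPM of NUP188 with CA-Stat3 and 76.3 and 78.9 CPM with WT-Stat3, and wildtypes had 74.7, 77.9 and 66.1 CPM with CA-Stat3 and 69.1 and 82.7 CPM with WT-Stat3. Its genotypes overlapped, at 0.05 ± 0.14 (edgeR BH-adjusted p = 0.809). NUP155 was at 0.11 ± 0.14 (edgeR BH-adjusted p = 0.558), and replicate 2 of the WT-Stat3 mutants had 195 CPM, while the other 4 mutants had 103 to 116 CPM and the wildtypes 111 to 125 CPM.

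The central channel is filled by the complex of Nup54, Nup58 and Nup62. nup54 (ENSDARG00000103296) had 40.9, 50.9 and 41.1 CPM in the CA-Stat3 mutants and 31 and 51.6 CPM in the WT-Stat3 mutants. Siblings had 29, 27.7 and 24.9 CPM of nup54 with CA-Stat3 and 21.6 and 29.3 CPM with WT-Stat3, and wildtypes had 23.7, 25.8 and 21.9 CPM with CA-Stat3 and 17.6 and 26.7 CPM with WT-Stat3. Mutant libraries were all higher than the others, the lowest mutant library being replicate 1 with WT-Stat3. The difference of nup54 was 0.89 ± 0.18 (edgeR BH-adjusted p = 0.00136) against wildtypes and 0.70 ± 0.18 (edgeR BH-adjusted p = 0.00818) against siblings. NUP58 was called at 0.52 ± 0.16 (edgeR BH-adjusted p = 0.0207). It lost its call without replicate 1 of the CA-Stat3 mutants (0.43), replicate 2 of the WT-Stat3 mutants (0.31), replicate 3 of the CA-Stat3 wildtypes (0.49) or replicate 1 (0.46) or 2 (0.50) of the WT-Stat3 wildtypes. The third gene was nup62l, the row named for Nup62. nup62l (ENSDARG00000020527) had 84.3, 93.8 and 57.7 CPM in the CA-Stat3 mutants and 66.8 and 66.6 CPM in the WT-Stat3 mutants. Siblings had 58.3, 53 and 54.9 CPM of nup62l with CA-Stat3 and 62.6 and 57.6 CPM with WT-Stat3, and wildtypes had 65.1, 55.8 and 54.9 CPM with CA-Stat3 and 52 and 60.9 CPM with WT-Stat3. A single CA-Stat3 mutant library lay within the range of the wildtypes, and nup62l was not called, at 0.33 ± 0.14 (edgeR BH-adjusted p = 0.0838). It was called without replicate 3 of the CA-Stat3 mutants (0.42).

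On the cytoplasmic side NUP88 and nup214 form a complex that helps messenger RNA leave the pore. NUP88 (ENSDARG00000003235) had 39.5, 50.01 and 40.7 CPM in the CA-Stat3 mutants and 43.3 and 58.6 CPM in the WT-Stat3 mutants. Siblings had 23.2, 25.5 and 20.5 CPM of NUP88 with CA-Stat3 and 19.6 and 26.1 CPM with WT-Stat3, and wildtypes had 23.7, 24.9 and 19.4 CPM with CA-Stat3 and 19.5 and 19.3 CPM with WT-Stat3. The lowest mutant library had 39.5 CPM and the highest of the 10 others 26.1 CPM. NUP88 had the largest called difference of the 46 genes, 1.16 ± 0.15 (edgeR BH-adjusted p = 5.4e-05) against wildtypes and 1.03 ± 0.15 (edgeR BH-adjusted p = 1.92e-04) against siblings, and it was called in each of the 24 alternative fits. Its partner nup214 did not pass the test. nup214 (ENSDARG00000016212) had 127, 104 and 107 CPM in the CA-Stat3 mutants and 127 and 226 CPM in the WT-Stat3 mutants. Siblings had 105, 115 and 119 CPM of nup214 with CA-Stat3 and 119 and 128 CPM with WT-Stat3, and wildtypes had 104, 108 and 110.3 CPM with CA-Stat3 and 108 and 116 CPM with WT-Stat3. Replicate 2 of the WT-Stat3 mutants was the highest of all libraries, and 2 of the other 4 mutants lay within the range of the wildtypes. The difference was 0.36 ± 0.14 (edgeR BH-adjusted p = 0.0701) with that library and 0.13 without it. Without replicate 1 of the WT-Stat3 mutants, where replicate 2 was the only library of its group, the difference was 0.50. The row nup42, which encodes a docking site of the export factor Gle1, had 8 to 46 counts a library. nup42 (ENSDARG00000029043) had 5.19, 9.83 and 5.9 CPM in the CA-Stat3 mutants and 3.62 and 2.79 CPM in the WT-Stat3 mutants. Siblings had 5.04, 4.44 and 2.57 CPM of nup42 with CA-Stat3 and 4.6 and 2.73 CPM with WT-Stat3, and wildtypes had 4.62, 4.35 and 4.56 CPM with CA-Stat3 and 3.65 and 3.62 CPM with WT-Stat3. Mutants lay on both sides of the wildtypes, at 0.23 ± 0.29 (edgeR BH-adjusted p = 0.598).

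Neither gene of the nuclear basket was called. The first of them is nup153, which anchors the basket. nup153 (ENSDARG00000099972) had 97, 118 and 96.2 CPM in the CA-Stat3 mutants and 113 and 162 CPM in the WT-Stat3 mutants. Siblings had 79, 105 and 115 CPM of nup153 with CA-Stat3 and 112 and 98.9 CPM with WT-Stat3, and wildtypes had 76.8, 101.3 and 91.5 CPM with CA-Stat3 and 97.4 and 117 CPM with WT-Stat3. The other 14 libraries overlapped between 76.8 and 118 CPM, with replicate 2 of the WT-Stat3 mutants above them, and the difference was 0.28 ± 0.15 (edgeR BH-adjusted p = 0.167). NUP50, a basket protein that assists the release of importin alpha cargo, was the other. NUP50 (ENSDARG00000017454) had 78, 90.2 and 76.3 CPM in the CA-Stat3 mutants and 73.4 and 71.8 CPM in the WT-Stat3 mutants. Siblings had 64.7, 68.1 and 74.5 CPM of NUP50 with CA-Stat3 and 65.3 and 72.5 CPM with WT-Stat3, and wildtypes had 71.8, 64.5 and 62.4 CPM with CA-Stat3 and 60.2 and 61.9 CPM with WT-Stat3. Of the mutants 4 lay above every wildtype and the lowest was level with the highest wildtype, and the difference was 0.27 ± 0.11 (edgeR BH-adjusted p = 0.081). The membrane ring had a single gene, NUP210, a transmembrane nucleoporin. NUP210 (ENSDARG00000063333) had 145, 171 and 167 CPM in the CA-Stat3 mutants and 149 and 259 CPM in the WT-Stat3 mutants. Siblings had 120.0, 138 and 135 CPM of NUP210 with CA-Stat3 and 122 and 128 CPM with WT-Stat3, and wildtypes had 105, 124 and 119 CPM with CA-Stat3 and 103 and 117 CPM with WT-Stat3. All mutants were above all other libraries. The difference was 0.68 ± 0.14 (edgeR BH-adjusted p = 0.00228) against wildtypes and 0.50 ± 0.14 (edgeR BH-adjusted p = 0.0174) against siblings.

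**Figure D3:**
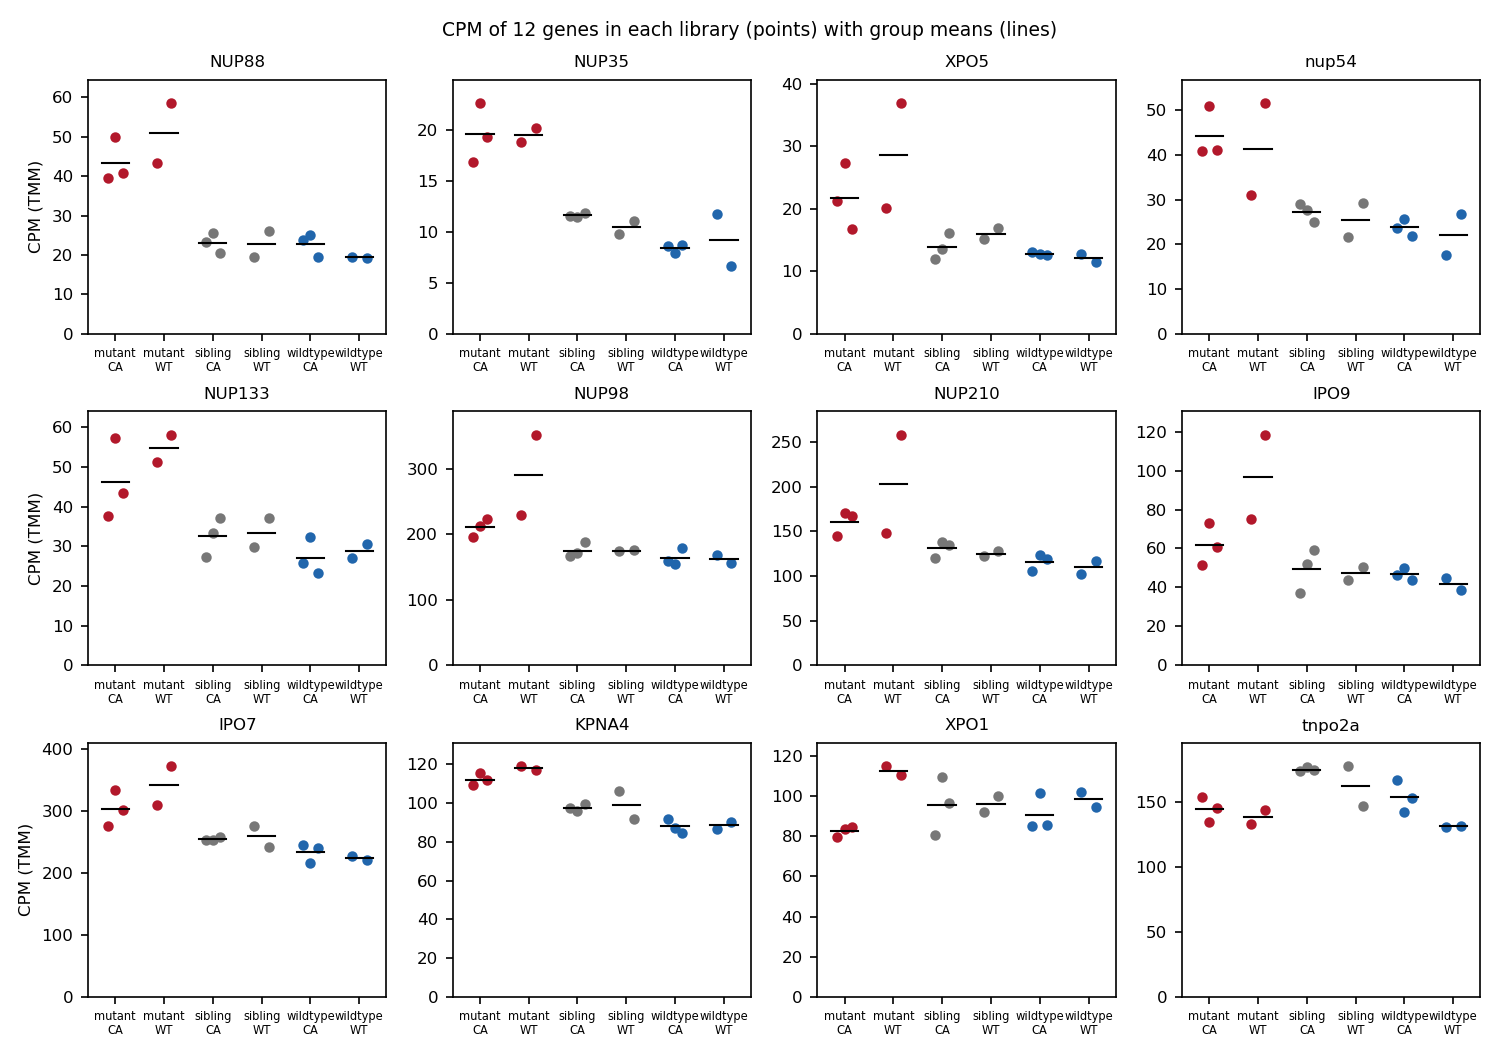
CPM (vertical axis, from 0) of 12 of the 46 genes in each library, by genotype and construct, with the mean of each group as a line. Mutants (red) lie above wildtypes (blue) in the genes from NUP88 to KPNA4, and the genotypes overlap in XPO1 and tnpo2a.

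Among the receptors, 7 importin alpha genes were measured and 1 was called, where 13.9% of all genes tested were called higher. KPNA4 (ENSDARG00000023190) had 109, 115 and 112 CPM in the CA-Stat3 mutants and 119 and 117 CPM in the WT-Stat3 mutants. Siblings had 97.5, 95.9 and 99.3 CPM of KPNA4 with CA-Stat3 and 106 and 91.8 CPM with WT-Stat3, and wildtypes had 91.8, 87.2 and 84.8 CPM with CA-Stat3 and 86.7 and 90.3 CPM with WT-Stat3. No mutant library fell below any sibling or wildtype library. The difference of KPNA4 was 0.38 ± 0.11 (edgeR BH-adjusted p = 0.012) against wildtypes and 0.23 ± 0.10 (edgeR BH-adjusted p = 0.121) against siblings, where it was not called. KPNA4 lost its call against wildtypes without replicate 1 (0.33) or 2 (0.36) of the WT-Stat3 wildtypes. KPNA2, the importin alpha that is best known from dividing cells, had the largest p. KPNA2 (ENSDARG00000038066) had 62.3, 76.7 and 62.6 CPM in the CA-Stat3 mutants and 73.6 and 61.7 CPM in the WT-Stat3 mutants. Siblings had 76.3, 105 and 72.1 CPM of KPNA2 with CA-Stat3 and 62 and 83.3 CPM with WT-Stat3, and wildtypes had 66.1, 109.6 and 73.1 CPM with CA-Stat3 and 65.2 and 77.8 CPM with WT-Stat3. Wildtypes and siblings spanned more than the mutants, and the difference was -0.19 ± 0.17 (edgeR BH-adjusted p = 0.422). The values of KPNA1, KPNA3, KPNA5 and KPNA6 lay between 0.19 (KPNA3) and 0.40 (KPNA6), without a call. KPNA6 was called without replicate 3 of the CA-Stat3 mutants (0.46). The row kpna7, an importin alpha known from mouse oocytes and early embryos, had 195 counts in all and was at 0.97 ± 0.50 (edgeR BH-adjusted p = 0.161).

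Of the 8 importin beta genes, 3 were called. IPO9 (ENSDARG00000016753) had 51.5, 73.1 and 60.8 CPM in the CA-Stat3 mutants and 75 and 119 CPM in the WT-Stat3 mutants. Siblings had 37.2, 51.9 and 59.1 CPM of IPO9 with CA-Stat3 and 44 and 50.3 CPM with WT-Stat3, and wildtypes had 46.6, 49.9 and 43.9 CPM with CA-Stat3 and 44.9 and 38.8 CPM with WT-Stat3. The mutants were above all wildtypes but overlapped the siblings. IPO9, an importin of histones, was at 0.80 ± 0.16 (edgeR BH-adjusted p = 0.0019) against wildtypes and 0.68 ± 0.16 (edgeR BH-adjusted p = 0.00661) against siblings. IPO7, an importin of ribosomal proteins and histones, was also called. IPO7 (ENSDARG00000035751) had 276, 334 and 301 CPM in the CA-Stat3 mutants and 309.6 and 372 CPM in the WT-Stat3 mutants. Siblings had 253, 253 and 258 CPM of IPO7 with CA-Stat3 and 276 and 242 CPM with WT-Stat3, and wildtypes had 245, 215 and 241 CPM with CA-Stat3 and 227 and 221 CPM with WT-Stat3. All 5 mutants were above all 5 wildtypes, with a difference of 0.49 ± 0.11 (edgeR BH-adjusted p = 0.00363). IPO5, a further importin of ribosomal proteins and histones, had 181 to 298 CPM in mutants, 173 to 251 CPM in siblings and 164 to 186 CPM in wildtypes. It was not called against siblings, at 0.11 (edgeR BH-adjusted p = 0.561). Against wildtypes IPO5 was called at 0.38 ± 0.13 (edgeR BH-adjusted p = 0.0397). Its call was retained in 4 of the 15 fits that leave out a library, namely those without replicate 1 of the WT-Stat3 mutants or without replicate 1, 2 or 3 of the CA-Stat3 siblings. The range over all 15 was 0.28 to 0.44.

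KPNB1, the main importin beta, was not called. KPNB1 (ENSDARG00000104889) had 308, 315 and 305 CPM in the CA-Stat3 mutants and 323 and 345 CPM in the WT-Stat3 mutants. Siblings had 304, 297 and 299 CPM of KPNB1 with CA-Stat3 and 311 and 305 CPM with WT-Stat3, and wildtypes had 279, 272 and 265 CPM with CA-Stat3 and 272 and 294 CPM with WT-Stat3. Although the 5 mutant libraries lay above the 5 wildtype libraries, the difference was 0.21 ± 0.10 (edgeR BH-adjusted p = 0.121). The gene with the largest p in this class was IPO8, an importin with Argonaute proteins and Smads among its cargoes. IPO8 (ENSDARG00000058159) had 14.6, 19.2 and 16.4 CPM in the CA-Stat3 mutants and 23.6 and 17.8 CPM in the WT-Stat3 mutants. Siblings had 17.6, 18.3 and 18.2 CPM of IPO8 with CA-Stat3 and 14.7 and 12.9 CPM with WT-Stat3, and wildtypes had 22.1, 29.4 and 15.5 CPM with CA-Stat3 and 18.1 and 22.8 CPM with WT-Stat3. Genotypes overlapped, at -0.20 ± 0.19 (edgeR BH-adjusted p = 0.445). The remaining 3 genes were not called: ipo4 was at 0.22 ± 0.14, IPO11 at 0.24 ± 0.15 and IPO13, which works in both directions, at 0.37 ± 0.15 (edgeR BH-adjusted p = 0.0667). IPO13 was at 0.47 without replicate 1 of the WT-Stat3 mutants, which left replicate 2 as the only library of that group.

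Exportins were split between 2 called genes and 4 others. XPO5 (ENSDARG00000098868) had 21.2, 27.4 and 16.8 CPM in the CA-Stat3 mutants and 20.2 and 36.9 CPM in the WT-Stat3 mutants. Siblings had 11.9, 13.6 and 16.2 CPM of XPO5 with CA-Stat3 and 15.1 and 16.9 CPM with WT-Stat3, and wildtypes had 13.1, 12.8 and 12.5 CPM with CA-Stat3 and 12.8 and 11.5 CPM with WT-Stat3. The lowest mutant library, replicate 3 with CA-Stat3, was above all wildtypes and just under the highest sibling. XPO5, which carries microRNA precursors to the cytoplasm, was at 0.99 ± 0.19 (edgeR BH-adjusted p = 0.00138) against wildtypes and 0.74 ± 0.19 (edgeR BH-adjusted p = 0.0109) against siblings. XPO4, the exportin of the translation factor eIF5A, was at 0.65 ± 0.17 (edgeR BH-adjusted p = 0.0104), with 26.8 ± 6.63 CPM in mutants, 16.8 ± 2.77 CPM in siblings and 17.2 ± 2.55 CPM in wildtypes (SD, n = 5 each). XPO4 lost its call without replicate 2 of the WT-Stat3 mutants (0.51) or replicate 1 of the WT-Stat3 wildtypes (0.53).

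The exportin for leucine-rich signals is encoded by a pair of paralogs in the table, XPO1 and xpo1a. XPO1 (ENSDARG00000063229) had 79.6, 83.8 and 84.8 CPM in the CA-Stat3 mutants and 115 and 110.5 CPM in the WT-Stat3 mutants. Siblings had 80.5, 109.6 and 96.6 CPM of XPO1 with CA-Stat3 and 92.2 and 100.2 CPM with WT-Stat3, and wildtypes had 84.9, 101.4 and 85.8 CPM with CA-Stat3 and 102 and 94.8 CPM with WT-Stat3. CA-Stat3 mutants were at the low end and WT-Stat3 mutants at the high end of all libraries. The difference averaged over constructs was 0.03 ± 0.12 (edgeR BH-adjusted p = 0.873). xpo1a (ENSDARG00000078041) had 111, 129 and 124 CPM in the CA-Stat3 mutants and 138 and 161 CPM in the WT-Stat3 mutants. Siblings had 113, 158 and 148 CPM of xpo1a with CA-Stat3 and 127 and 143 CPM with WT-Stat3, and wildtypes had 133, 147 and 125 CPM with CA-Stat3 and 131 and 122 CPM with WT-Stat3. CA-Stat3 mutants were again below WT-Stat3 mutants, siblings and wildtypes overlapped both, and the average difference was 0.05 ± 0.12 (edgeR BH-adjusted p = 0.816). How reads were divided between the paralogs is not given in the sources used here. XPO6, the exporter of actin, was at 0.10 ± 0.15 (edgeR BH-adjusted p = 0.658) and XPO7 at 0.35 ± 0.14 (edgeR BH-adjusted p = 0.0721). XPO7 was called without replicate 3 of the CA-Stat3 mutants (0.41) or replicate 1 of the CA-Stat3 wildtypes (0.44).

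None of the 4 transportins was called by edgeR in mutants against wildtypes, and none had an unadjusted p under 0.05. TNPO3 carries phosphorylated SR splicing factors into the nucleus. TNPO3 (ENSDARG00000045680) had 47.3, 56.2 and 53.2 CPM in the CA-Stat3 mutants and 51.6 and 68.7 CPM in the WT-Stat3 mutants. Siblings had 51.5, 55.5 and 52.1 CPM of TNPO3 with CA-Stat3 and 46.9 and 52.8 CPM with WT-Stat3, and wildtypes had 56.6, 45.5 and 41.6 CPM with CA-Stat3 and 53.2 and 46.7 CPM with WT-Stat3. The genotypes overlapped, at 0.19 ± 0.13 (edgeR BH-adjusted p = 0.296). TNPO1, the importer of proteins with proline-tyrosine signals such as hnRNP A1, was at -0.11 ± 0.15 (edgeR BH-adjusted p = 0.622). TNPO1 (ENSDARG00000035390) had 25.5, 23.1 and 19.3 CPM in the CA-Stat3 mutants and 22.6 and 37.3 CPM in the WT-Stat3 mutants. Siblings had 33.8, 31.2 and 29.2 CPM of TNPO1 with CA-Stat3 and 25.9 and 25.5 CPM with WT-Stat3, and wildtypes had 28.1, 27.6 and 26.9 CPM with CA-Stat3 and 30.0 and 27 CPM with WT-Stat3. Of the mutants, 4 lay below every wildtype and replicate 2 with WT-Stat3 lay above every one. The relatives TNPO2 and tnpo2a were at -0.03 ± 0.18 (edgeR BH-adjusted p = 0.914) and -0.01 ± 0.11 (edgeR BH-adjusted p = 0.972). tnpo2a (ENSDARG00000038239) had 154, 135 and 145 CPM in the CA-Stat3 mutants and 133 and 144 CPM in the WT-Stat3 mutants. Siblings had 174, 177 and 174 CPM of tnpo2a with CA-Stat3 and 178 and 147 CPM with WT-Stat3, and wildtypes had 167, 142 and 153 CPM with CA-Stat3 and 131 and 132 CPM with WT-Stat3. Of the siblings 4 were above every library of both other genotypes, and mutants and wildtypes overlapped.

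The same mutant libraries were compared with their siblings. Of the 46 genes, 11 were called higher and 0 lower, where 12.4% of all genes tested were called higher and 13.9% lower, 26.2% in all. In 8 of the 46 genes all mutants lay above all siblings, which held for 8.01% of all genes, in 0 they all lay below, which held for 7.71%, and the median difference was 0.23, against -0.02 over all genes tested. The called genes were NUP88, NUP35, NUP133, NUP43, NUP98, nup54, NUP210, IPO9, IPO7, XPO4 and XPO5. NUP205, at 0.44 ± 0.16 (edgeR BH-adjusted p = 0.0521), was not among them. The count depended on single libraries: 4 of the 46 (8.7%) were called higher without replicate 2 of the WT-Stat3 mutants, where 9.08% of all genes were, so the share of the 46 genes was not above that of all genes without this library. All mutants then lay above all siblings in 10 of the 46 (10.6% of all genes) and below them in 2 (8.66%), and the median was 0.18. Without replicate 1 of the WT-Stat3 siblings 6 of the 46 were called, 5 of them among the 11, where 19.6% of all genes were called in either direction. Without that mutant library NUP98, XPO4, XPO5, nup54, NUP210, IPO7 and NUP43 lost their calls, and without that sibling library NUP133, XPO5, nup54, NUP210, IPO7 and NUP43 did. NUP210 also lost its call without replicate 2 of the WT-Stat3 siblings. Of the 15 fits that leave out a library, NUP43 was called in 1 (0.47 to 0.70) and IPO7 in 3 (0.25 to 0.36). NUP88, NUP35 and IPO9 were called in all 24 alternative fits. NUP160 was at -0.34 ± 0.14 (edgeR BH-adjusted p = 0.0796), below 0 and not called.

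None of the 46 genes was called between siblings and wildtypes. In the comparison of siblings with wildtypes edgeR called 0 of the 46 genes and 0% of all genes tested, and 4 of the 46 had an unadjusted p under 0.05, a share of 8.7%, where 9.5% of all genes did. DESeq2 called 0 of the 46 (12 of all genes) and limma voom 0. The 4 genes were NUP160 (0.31 ± 0.14), XPO7 (0.30 ± 0.14), tnpo2a (0.25 ± 0.11) and IPO8 (-0.44 ± 0.18). The median over the 46 genes was 0.13 and 38 of the 46 differences were above 0 (51.2% of all genes). In 5 of the 46 all siblings lay above all wildtypes, namely KPNA4, KPNA5, KPNB1, NUP155 and NUP160, which held for 0.982% of all genes. KPNA4 had 115 ± 4.0 CPM in mutants, 98.2 ± 5.3 CPM in siblings and 88.1 ± 2.84 CPM in wildtypes (SD, n = 5 each), and its difference of siblings from wildtypes was 0.16 ± 0.10 (edgeR BH-adjusted p = 0.654).

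Under each Stat3 construct alone, mutants could be set against wildtypes without a shared library. With CA-Stat3, 5 of the 46 genes were called higher and 0 lower, where 7.26% of all genes tested were called higher and 7.43% lower, with a median of 0.22 over the 46 genes. The share of the 46 called higher was 10.9%. The 5 genes were NUP35 (1.22 ± 0.23), NUP88 (0.93 ± 0.19), nup54 (0.89 ± 0.22), NUP133 (0.76 ± 0.20) and XPO5 (0.76 ± 0.24). This count was 11 by limma voom and 8 by DESeq2, whose shares of all genes called are not given here. It was 2 without replicate 2 of the CA-Stat3 mutants (7.68% of all genes called in either direction) or replicate 3 of the CA-Stat3 wildtypes (9.11%). Without replicate 1 of the CA-Stat3 wildtypes it was 3 (11.1%). With WT-Stat3, 11 of the 46 were called higher and 0 lower, where 6.14% of all genes were called higher and 5.94% lower, with a median of 0.39. They were NUP88, IPO9, NUP98, XPO5, NUP210, NUP205, NUP35, NUP133, NUP58, IPO7 and nup54, with differences between 0.61 (IPO7) and 1.38 (NUP88). Of the 46, 1 (2.17%) was called higher without replicate 2 of the WT-Stat3 mutants, where 2.31% of all genes were, so the share of the 46 genes was not above that of all genes without this library. Without replicate 2 of the WT-Stat3 wildtypes 1 was called, where 3.88% of all genes were called in either direction, and without replicate 1 of that group 3 were, where 5.24% were. NUP88 was at 0.93 ± 0.19 (edgeR BH-adjusted p = 0.00387) with CA-Stat3 and 1.38 ± 0.24 (edgeR BH-adjusted p = 0.00202) with WT-Stat3. NUP35 was at 1.22 ± 0.23 (edgeR BH-adjusted p = 0.00222) with CA-Stat3 and 1.07 ± 0.29 (edgeR BH-adjusted p = 0.0235) with WT-Stat3.

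The differences under the 2 constructs ran together across the 46 genes (Pearson r 0.64, Spearman rho 0.684), a description across genes measured in the same libraries. It includes replicate 2 of the WT-Stat3 mutants, and no such correlation was computed over all genes tested. For 38 of the 46 genes the difference was larger with WT-Stat3, as for 48.9% of all genes tested, and without replicate 2 of the WT-Stat3 mutants for 24 of the 46 and 47.4% of all genes. The interaction of construct and genotype, which tests that difference, was called for 0 of the 46 genes and for 0% of all genes tested by edgeR. It had an unadjusted p under 0.05 for 2 of the 46 (4.35%, where 5.16% of all genes had), IPO9 (-0.80 ± 0.33) and NUP58 (-0.71 ± 0.32), and neither DESeq2 nor limma voom called any of the 46. The median interaction was -0.27 over the 46 genes and -0.04 without replicate 2 of the WT-Stat3 mutants, where 0 of the 46 had an unadjusted p under 0.05 (3.22% of all genes).

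**Figure D4:**
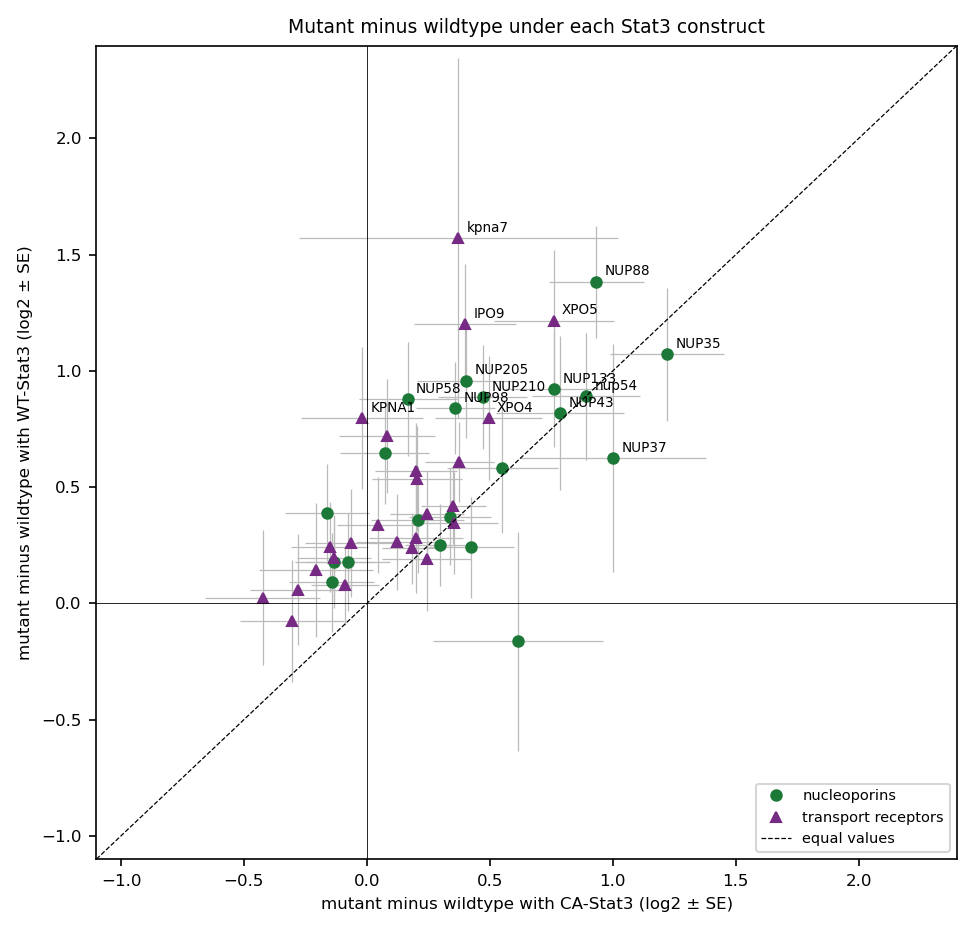
Mutant minus wildtype log2 difference of each of the 46 genes with CA-Stat3 (horizontal axis) and with WT-Stat3 (vertical axis), with bars of 1 SE. 38 of the 46 points lie above the line of equal values, and without replicate 2 of the WT-Stat3 mutants, which is included here, the WT-Stat3 difference was the larger in 24.

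None of the 46 genes was called between the constructs. Averaged over genotypes, CA-Stat3 minus WT-Stat3 had 0 of the 46 genes called and 0% of all genes tested, with an unadjusted p under 0.05 for 4 of the 46 (8.7%, where 12.7% of all genes had), and a median of -0.06. Within mutants the median was -0.25, with 36 of the 46 genes below 0 (47.4% of all genes), 0 called and 11 at an unadjusted p under 0.05 (23.9%, where 10.2% of all genes tested were). The smallest p of the 11 belonged to nup214, at -0.64 ± 0.20 (edgeR BH-adjusted p = 0.375), and the only 1 of them above 0 was nup42, at 1.09 ± 0.43. The median within mutants was -0.02 without replicate 2 of the WT-Stat3 mutants, 25 of the 46 were below 0 (46.1% of all genes) and 1 had an unadjusted p under 0.05 (2.17%, where 3.95% of all genes had). Averaged over genotypes, 2 of the 46 then had one (4.35%, where 9.61% had). Without replicate 1 of that group 4 genes were called lower within mutants, where 2.77% of all genes were called in either direction. Within siblings the median was 0.04, with 0 called and 1 at an unadjusted p under 0.05 (2.17%, where 4.18% of all genes were), and within wildtypes 0.05, with 0 called and 0 at an unadjusted p under 0.05 (4.02% of all genes). DESeq2 and limma voom called 0 of the 46 in each of these comparisons.

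Summed over the 46 genes, the pore and transport transcripts made up 3265 to 4659 CPM of the mutant libraries, 3054 to 3413 CPM of the sibling libraries and 2876 to 3031 CPM of the wildtype libraries. Without the highest library the mutants ranged up to 3636 CPM. The median coefficient of variation of the 46 genes was 19.1% over the 5 mutant libraries, 11.8% over the 5 siblings and 9.26% over the 5 wildtypes, and that of all genes tested was 31.5%, 26.7% and 24.3% in the same genotypes. The median of the 46 genes without replicate 2 of the WT-Stat3 mutants was 10.9% in 4 mutants, 11.8% in siblings and 9.42% in wildtypes. The spread among mutants was then below that of siblings and still above that of wildtypes. Over all genes tested the medians were then 27% in mutants, 28.2% in siblings and 25.8% in wildtypes. By group means, the WT-Stat3 mutants were the highest of the 6 groups for 30 of the 46 genes (24.6% of all genes tested) and the CA-Stat3 mutants for 9 (19.3%). Without replicate 2 of the WT-Stat3 mutants, which was itself the highest of all 15 libraries for 29 of the 46, these counts were 19 (22.4% of all genes) and 15 (21.3%). The WT-Stat3 wildtypes were the lowest for 16 of the 46 (19.3% of all genes) and the CA-Stat3 wildtypes for 12 (8.84%), and both counts were the same without that library. The CA-Stat3 mutants were the lowest for 9 (19.6%, where 16.7% of all genes were), as many as those for which they were the highest. Without that library they were the lowest for 6 (17% of all genes). The WT-Stat3 mutants were the lowest for 1 (29.8% of all genes), and for 4 without that library (28%).

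Genes of the same pathway that the name rule does not reach were taken from 6 lists. Of 14 other pore genes 6 were called higher and 1 lower in mutants than in wildtypes, with a median of 0.34. TMEM33, a membrane protein whose yeast relative is a pore protein, was at 1.17 ± 0.17 (edgeR BH-adjusted p = 1.17e-04), with 46.9 ± 10.1 CPM in mutants and 21.1 ± 2.82 CPM in wildtypes (SD, n = 5 each). SEH1L, a subunit of the Y complex, was at 1.07 ± 0.16 (edgeR BH-adjusted p = 1.77e-04), and NDC1, a transmembrane nucleoporin, at 0.83 ± 0.15 (edgeR BH-adjusted p = 7.51e-04). The gene called lower was mad1l1, a spindle checkpoint protein that docks at the basket, at -0.54 ± 0.18. It was named after its value was seen. RANBP2, the large cytoplasmic filament protein, was at 0.45 ± 0.17 (edgeR BH-adjusted p = 0.0568), and the basket protein TPR at 0.16 ± 0.11 (ENSDARG00000016630) and -0.13 ± 0.14 (ENSDARG00000103004), none of them called. Without replicate 2 of the WT-Stat3 mutants 5 of the 14 were called higher and 0 lower.

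Of 12 genes of the Ran cycle 2 were called higher and 0 lower. RANGAP1 (ENSDARG00000041317), which stimulates GTP hydrolysis by Ran at the cytoplasmic side, was at 0.93 ± 0.14 (edgeR BH-adjusted p = 1.28e-04), while the other row of that name (ENSDARG00000056059) was at 0.15 ± 0.16 and not called. RCC1, which loads Ran with GTP on chromatin, was at 0.52 ± 0.19 (edgeR BH-adjusted p = 0.0483). RAN itself was at 0.10 ± 0.11 (edgeR BH-adjusted p = 0.509). Of 8 tested receptors and adaptors outside the name rule 3 were called higher and 0 lower. NMD3, the export adaptor of the large ribosomal subunit, was at 2.07 ± 0.16 (edgeR BH-adjusted p = 1.49e-07), with 60.6 ± 9.86 CPM in mutants and 14.6 ± 2.45 CPM in wildtypes (SD, n = 5 each). SNUPN, the adaptor that brings spliceosomal small nuclear ribonucleoproteins into the nucleus, was at 1.76 ± 0.23 (edgeR BH-adjusted p = 4.51e-05), with 36.2 ± 6.56 CPM in mutants and 10.8 ± 3.35 CPM in wildtypes (SD, n = 5 each). NXT2, a partner of the messenger RNA export receptor, was at 0.93 ± 0.29 (edgeR BH-adjusted p = 0.0242). NXT2 had few counts, 168 in mutants, 161 in siblings and 133 in wildtypes. The receptor row nxf1b was not called, with mean CPM of 28.3 in mutants, 31.1 in siblings and 28.5 in wildtypes. CSE1L, the exportin that returns importin alpha to the cytoplasm, was at 0.18 ± 0.14 (edgeR BH-adjusted p = 0.368).

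Of 23 tested messenger RNA export genes 8 were called higher and 1 lower, with a median of 0.26. The helicase DDX19A, which acts at the cytoplasmic side of the pore, was at 0.90 ± 0.15 (edgeR BH-adjusted p = 3.2e-04) and ddx39b, the helicase of the TREX export complex, at 1.02 ± 0.19 (edgeR BH-adjusted p = 9.44e-04). The TREX subunit THOC2 was the gene called lower, at -0.65 ± 0.13 (edgeR BH-adjusted p = 0.00161). Without replicate 2 of the WT-Stat3 mutants 5 of the 23 were called higher and 1 lower. Of 19 tested nuclear lamina and envelope genes 2 were called higher and 5 lower, with a median of -0.22. The envelope linkers syne3 and syne1b were at -0.87 ± 0.16 (edgeR BH-adjusted p = 7.25e-04) and -0.90 ± 0.17 (edgeR BH-adjusted p = 0.00101), ANKLE2 at 0.91 ± 0.21 (edgeR BH-adjusted p = 0.00431), and the lamin gene LMNB1 at 0.08 ± 0.14, not called. Of the 19, 2 were called higher and 3 lower without replicate 2 of the WT-Stat3 mutants. These lower calls stood beside the lower mesenchymal and leukocyte markers given above, whose part was not tested. Of 16 tested SUMO pathway genes 1 was called higher, the protease senp3b at 0.85 ± 0.21 (edgeR BH-adjusted p = 0.00634), and 0 lower. The counts of the Ran cycle, receptor and SUMO lists were the same without replicate 2 of the WT-Stat3 mutants. The background of these lists is the share of all genes called, which was 13.9% higher and 14.8% lower with all libraries and 10.5% higher and 9.47% lower without that replicate, and no list was tested as a set.

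**Figure D5:**
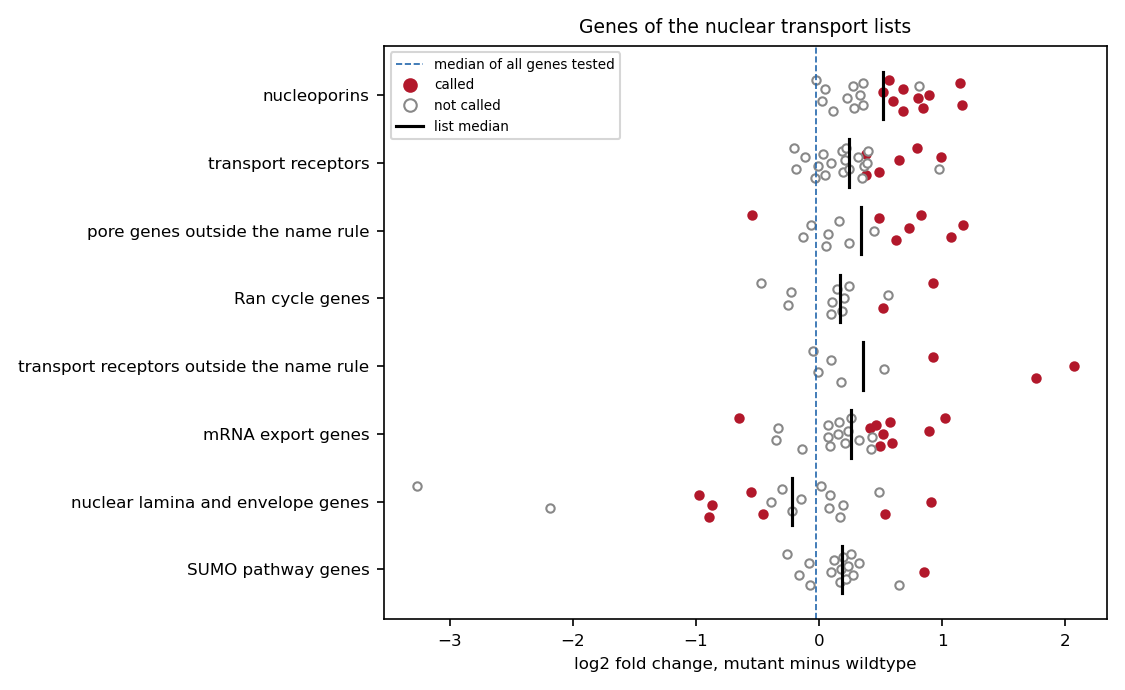
Log2 difference of mutants against wildtypes (horizontal axis) for each tested gene of the nucleoporins, the transport receptors and the 6 pathway lists (rows), with called genes filled. Black bars are list medians, from -0.22 in the lamina and envelope genes to 0.52 in the nucleoporins, and the dashed line is the median of all genes tested. Without replicate 2 of the WT-Stat3 mutants, which is included here, these list medians were -0.38 and 0.34. The highest list medians were then 0.37 in the receptors outside the name rule and 0.35 in the messenger RNA export genes.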

How the data were processed

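Poly(A) RNA of kdrl-positive cells from zebrafish embryos was sequenced in 15 libraries. The authors deposited whole-number read counts per gene, not normalized, for each library. Trim Galore, STAR (version 2.4.2a), Picard, DESeq2 and featureCounts are named, without their order, per the submitters' processing notes, as is the genome build GRCz10. Not given in the sources used here are the annotation, the strand setting and the treatment of duplicate or multiply mapped reads. Counts of close paralogs (XPO1 and xpo1a, TNPO2 and tnpo2a, the KPNA genes) are therefore uncertain where reads match both. Library totals, 3625121 to 8170371 counts, set the precision, and replicates differed by more than sampling noise.

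Counts were tested with the quasi-likelihood test of edgeR (version 4.0.16, limma 3.58.1, R 4.3.3) with TMM scaling, filterByExpr by group (minimum count 10, minimum total 15), and 1 coefficient for each of the 6 groups, which left 9 residual degrees of freedom. Of 27820 genes with any count 18020 were tested. P-values were adjusted by Benjamini-Hochberg over all of them, with a threshold of 0.05. SE is the absolute log2 difference divided by the square root of F. CPM uses TMM-scaled library sizes. Levels were not compared between genes, since no transcript lengths were used. The fit was tested on simulated data. Alternatives were DESeq2 (version 1.42.0), limma voom with quality weights, RLE size factors, a fit without filtering, a filter at 1 CPM in at least 5 libraries with a total of at least 50 counts, thinning to the shallowest library, the tested groups' libraries only, leaving out the 3 most abundant rows, a block for the replicate number and leaving out libraries in turn. The counts of classes, pathway lists, directions, separations and group means without replicate 2 of the WT-Stat3 mutants were added after seeing the data.

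All 46 genes may be named. Values per library are given for the smallest and largest p of each class in mutants against wildtypes, the 5 largest called changes in each direction and a list of well-known genes. Of each pathway list up to 3 called genes of smallest p and a few well-known genes are named. The members and lists were chosen with earlier results of these data known. Promoter motifs and sequences were not analysed here.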

Additional observations from a re-analysis of the deposited data

How the results depend on the processing

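Of the 46 genes, 10 kept their call in mutants against wildtypes in all 24 alternatives, namely NUP133, NUP98, NUP205, NUP35, nup54, NUP88, NUP210, IPO7, IPO9 and XPO5. In mutants against siblings NUP35, NUP88 and IPO9 did so. Leaving out single libraries gave 10 to 19 calls in mutants against wildtypes, 4 to 13 in mutants against siblings, 2 to 7 with CA-Stat3, 1 to 16 with WT-Stat3, 0 to 4 for CA-Stat3 against WT-Stat3 in mutants, and 0 in each other comparison. The highest counts against siblings, with WT-Stat3 and between constructs in mutants came without replicate 1 of the WT-Stat3 mutants. That fit left replicate 2, which stood apart, as the only library of its group. The share of all genes called in either direction moved too. Over the fits without a CA-Stat3 library it was 23.9% to 30% against wildtypes and 20.8% to 28.3% against siblings. It was 7.68% to 15.8% with CA-Stat3 and 10.8% to 13.2% with WT-Stat3. These ranges do not cover the fits without a WT-Stat3 library. The lowest counts against wildtypes, against siblings and with WT-Stat3 came from such fits. In the fits with those counts the share of all genes called was below these ranges too. With CA-Stat3 mutants against wildtypes DESeq2 made 8 calls and limma voom 11, and with WT-Stat3 limma voom made 6 and a fit to those libraries alone 2. The shares of all genes called in these fits are not given here. The causes were not tested. Without any filter 12 of the 16 calls against wildtypes were left, with NUP85, IPO5, KPNA4 and NUP58 lost. The stricter filter lost IPO5, and thinning lost IPO5 and NUP58 and gained NUP37. Shares of all genes called with these filters or after thinning are not given here either. Direction changed only for genes near 0 that were not called. NUP107 was at -0.0416 without a filter, -0.00123 with the stricter filter and -0.0149 after thinning. NUP160 was at 0.00536 after thinning, and without a filter NUP188 was at -0.0134, XPO1 at -0.0336 and xpo1a at -0.0193. The value of tnpo2a was 0.00205 in its own libraries and 0.00124 without the 3 most abundant rows. Over the fits that leave out a library NUP107 ranged from -0.0685 to 0.0587, NUP160 from -0.131 to 0.032, NUP155 from -0.088 to 0.238, NUP188 from -0.103 to 0.145, XPO1 from -0.0339 to 0.0769, xpo1a from -0.0169 to 0.0816, XPO6 from -0.0785 to 0.207, TNPO1 from -0.301 to 0.0131, TNPO2 from -0.28 to 0.129 and tnpo2a from -0.0612 to 0.0266. The median of all genes moved by more than 0.1 only without replicate 1 of the WT-Stat3 mutants, where it was -0.15. Libraries of different groups were also correlated in their deviations from group means. Of 33 pairs of equal replicate number 9 correlated above 0.1 (median r 0.083), and of 60 pairs of different number 5 did (median r -0.028). Of the 15 libraries 10 correlated best with a library of their own number. Within a group the deviations sum to 0, so these correlations are not independent of each other. The opposite signs of the medians are in part set by this. The main fit held no term for the replicate number. With a replicate block 17 genes were called in mutants against wildtypes, 13 in mutants against siblings, 12 with WT-Stat3, 6 with CA-Stat3 and 0 in each other comparison. For this block, too, the shares of all genes called are not given here. NUP37, nup42 and kpna7 had few counts, 430, 438 and 195 in all, and the part of depth in their results was not tested.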
